A study of Homo sapiens with 27 samples.

Results

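The 33 genes described here encode subunits of the standard proteasome, together with 3 chaperones of its assembly. PSMB3, ADRM1 and SEM1, other subunits, are not among them. The members were chosen by gene ID from a list of proteasome genes, with earlier results of these data known. Of the 33 members, 31 had signals on the array, among 16733 genes in all, and all 31 passed the filter on low signals, as did 12549 of the genes. PSMB2 (ENSG00000126067) and PSMB6 (ENSG00000142507) have no row in the table analysed here. RNA was measured in A549, an established human lung adenocarcinoma cell line, with the HTA 2.0 array, whose probes cover exons and the junctions between them. Cells received the transfection reagent alone (Lipofectamine), a scramble siRNA that targets no cellular mRNA, or an siRNA against SRSF1, an SR protein that guides the choice of splice sites. All 3 conditions thus received the reagent, and each had 3 replicates, each hybridized 3 times, so that 9 samples rest on 27 hybridizations. The study calls the replicates biological, and nothing else says that they were separate cultures, so the p-values measure the spread between these samples.

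The proteasome degrades proteins that carry a ubiquitin chain. Its core is a barrel of stacked rings, with alpha subunits (PSMA genes) at the gates and beta subunits (PSMB genes) within, a few of which cut the substrate. The cap at each end has a base, with a ring of ATPases (PSMC genes) that unfolds the substrate and drives it into the barrel, and a lid that removes the ubiquitin. The genes of these subunits are known for being transcribed in a coordinated manner, and NRF1 raises them when proteasome activity is low. PSMD5, PSMD9 and PSMD10 are not subunits of the finished particle: they hold the ATPases while the base is assembled and then leave.

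RefSeq start sites (GRCh38.p14) were given for 28 of the 33 members, with 34 promoters, and PSMA7, PSMB1, PSMB6, PSMB7 and PSMD4 had no entry. In the 250 bases before the start, both strands were searched for TGACNNNGC, the core of the antioxidant response element bound by NRF1 and NRF2, and for CCAAT, bound by NF-Y. The motifs do not overlap each other in letters. TGACNNNGC was found in 6 of the 34 promoters (17.6%), against 10.9% of the 34943 promoters of all genes. CCAAT was found in 14 of them (41.2%), against 32.0%. The 6 members with the first motif are PSMA4, PSMC5, PSMD3, PSMD5, PSMD9 and PSMD12. The promoters of 5 genes are given here, 5′ to 3′ on the strand of the gene, with motif matches in capitals: PSMA5 and PSMC4 had the largest fall and the largest rise after SRSF1 siRNA, and PSMD12, PSMC6 and PSMD9 had the 3 largest differences of scramble siRNA from Lipofectamine. PSMA5 lies at chr1:109426449-109426698 (minus strand), PSMC4 at chr19:39970915-39971164 (plus strand), PSMD12 at chr17:67366578-67366827 (minus strand), PSMC6 at chr14:52706950-52707199 (plus strand) and PSMD9 at chr12:121888540-121888789 (plus strand).
PSMA5: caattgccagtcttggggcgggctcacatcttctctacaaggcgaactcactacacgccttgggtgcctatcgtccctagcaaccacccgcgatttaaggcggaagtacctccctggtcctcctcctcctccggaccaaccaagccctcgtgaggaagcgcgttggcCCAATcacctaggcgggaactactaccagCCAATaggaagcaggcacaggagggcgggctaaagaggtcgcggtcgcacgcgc
PSMC4: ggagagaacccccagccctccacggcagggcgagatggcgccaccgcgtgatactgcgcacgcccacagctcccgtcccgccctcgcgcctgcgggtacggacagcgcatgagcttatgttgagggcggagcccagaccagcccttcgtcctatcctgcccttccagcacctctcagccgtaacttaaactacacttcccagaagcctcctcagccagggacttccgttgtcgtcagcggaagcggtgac
PSMD12: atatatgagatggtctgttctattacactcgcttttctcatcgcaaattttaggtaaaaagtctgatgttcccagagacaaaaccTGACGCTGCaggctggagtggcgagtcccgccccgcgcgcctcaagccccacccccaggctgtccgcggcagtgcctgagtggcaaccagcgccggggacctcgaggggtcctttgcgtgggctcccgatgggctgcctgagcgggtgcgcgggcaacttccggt
PSMC6: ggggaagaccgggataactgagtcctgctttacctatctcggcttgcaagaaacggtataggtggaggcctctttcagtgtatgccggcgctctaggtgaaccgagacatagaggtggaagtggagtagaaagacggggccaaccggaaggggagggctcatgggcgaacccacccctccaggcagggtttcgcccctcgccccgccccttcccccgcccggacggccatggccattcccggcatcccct
PSMD9: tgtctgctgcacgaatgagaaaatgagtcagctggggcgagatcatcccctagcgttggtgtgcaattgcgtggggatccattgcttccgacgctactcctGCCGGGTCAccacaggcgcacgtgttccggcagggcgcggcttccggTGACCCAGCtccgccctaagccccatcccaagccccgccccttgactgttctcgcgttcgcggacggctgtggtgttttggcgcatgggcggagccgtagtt
The capitals in PSMA5 are 2 CCAAT boxes. PSMD12 holds 1 copy of TGACNNNGC and PSMD9 holds 2, while neither motif was found in this window of PSMC4 or PSMC6. A match is a description of the letters only.

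The signal of a gene is the mean log2 signal of its distinct reference paths. Each splicing event of the table has a path 1 and a path 2, which are the alternatives, and a reference path, which both isoforms share, so the reference path follows the amount of RNA and not the choice of isoform, unless it is itself a path of another event. The 31 members had 114 distinct reference paths, between 1 and 10 a gene. The medians of the 27 hybridizations lay between 6.23 and 6.33 on the log2 scale, and the 3 conditions overlapped. Over the members, the median SD between the replicates of a condition was 0.05, and that between hybridizations of 1 sample was 0.06. On an array the signals of different genes are not comparable, so values are set against each other only within a gene. In bulk RNA, fewer cells of a type and less RNA per cell cannot be told apart.

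After SRSF1 siRNA, most proteasome genes were lower than after scramble siRNA, by small amounts. Of the 31 members, 19 fell, 3 rose and 9 did not pass the test, an adjusted p under 0.05 with limma over the 12549 genes. Over all genes tested, 26.8% fell and 28.4% rose. The median change of the members was −0.19 on the log2 scale, against 0.04 over all genes, and 28 of the 31 values were below 0. The falls lay between −0.49 and −0.16, and none of them reached 1.5-fold, a size that 946 of all genes tested reached. The 3 SRSF1 siRNA replicates lay below all 3 scramble replicates for 21 members and above them for 3. Over all genes, these shares were 30.0% and 35.0%. Between samples of the same number, 27, 25 and 27 members were lower after SRSF1 siRNA in replicates 1, 2 and 3. This was not counted over all genes.

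**Figure D1:**
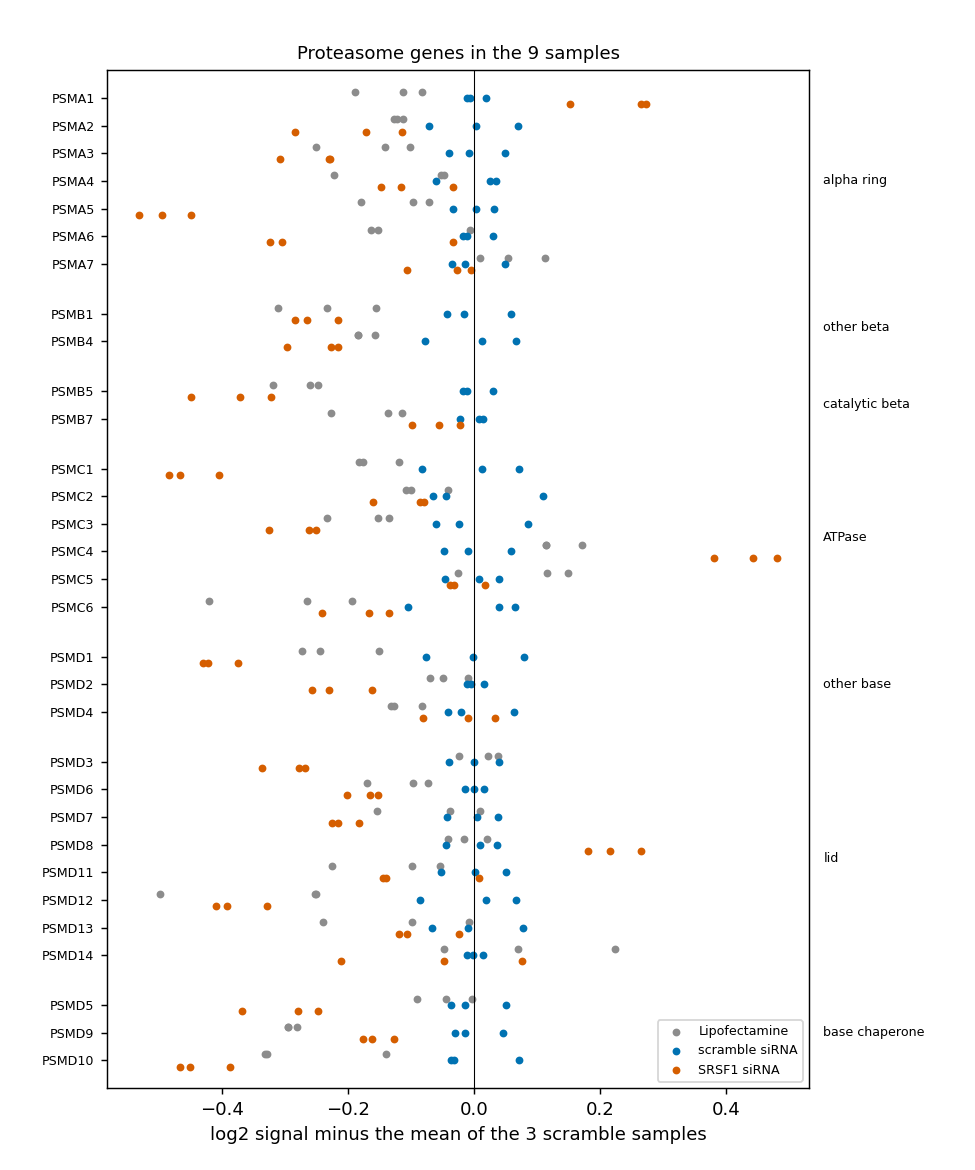
Log2 signal of each of the 31 measured proteasome genes in the 9 samples (grey Lipofectamine, blue scramble siRNA, orange SRSF1 siRNA), minus the mean of the 3 scramble samples of that gene. Genes are grouped by their place in the proteasome. The orange points lie left of all blue points for 21 genes and right of them for 3, PSMA1, PSMC4 and PSMD8.

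The alpha ring held both the largest fall of all members and a rise. Of its 7 genes, 4 fell (PSMA2, PSMA3, PSMA5 and PSMA6) and 1 rose. PSMA5 (ENSG00000143106) had log2 signals of 9.57, 9.60 and 9.53 in the scramble replicates, 9.03, 9.11 and 9.07 after SRSF1 siRNA, and 9.38, 9.49 and 9.47 with Lipofectamine. All 3 SRSF1 siRNA replicates were lower than the 6 control replicates. The change against scramble was −0.49 (SE 0.05, n = 3 per condition), which is 1.41-fold, with a limma adjusted p of 2.43e-06. Its 3 reference paths fell by 0.57, 0.46 and 0.45, and the values of its 9 distinct alternative paths lay between −0.45 and 0.15, 6 of them below 0. PSMA1 (ENSG00000129084), another wall subunit of the same ring, went the other way. Its signal was 8.58, 8.60 and 8.57 with scramble siRNA, 8.74, 8.86 and 8.85 with SRSF1 siRNA, and 8.40, 8.50 and 8.47 with Lipofectamine. The SRSF1 siRNA replicates were above all controls, with a rise of 0.23 against scramble (SE 0.05, adjusted p = 0.00168) and of 0.36 against Lipofectamine. Both of its reference paths and all 4 of its alternative paths were above 0. PSMA4 and PSMA7 had changes of −0.10 and −0.05 and did not pass the test.

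Both members with signals among the structural genes of the beta ring fell, PSMB1 by 0.26 and PSMB4 by 0.25. With the mean of all its paths, though, PSMB1 was at −0.09 and did not pass (adjusted p = 0.112). The catalytic subunits are PSMB5, PSMB6 and PSMB7, which cut after hydrophobic, acidic and basic residues, and PSMB6 was not measured. PSMB5 (ENSG00000100804) had signals of 8.67, 8.71 and 8.67 with scramble siRNA, 8.23, 8.31 and 8.36 with SRSF1 siRNA, and 8.42, 8.36 and 8.44 with Lipofectamine. The SRSF1 siRNA replicates were the lowest of the 9 samples, and the Lipofectamine replicates lay between those and scramble. The fall against scramble was −0.38 (SE 0.05, adjusted p = 2.34e-05), while the difference from Lipofectamine, −0.11, did not pass (adjusted p = 0.0869, 95% interval −0.21 to −0.00). All 5 distinct alternative paths of PSMB5 were below 0, from −0.81 to −0.27. PSMB7 (ENSG00000136930) had signals of 8.96, 8.99 and 9.00 with scramble siRNA, 8.89, 8.96 and 8.93 with SRSF1 siRNA, and 8.76, 8.85 and 8.87 with Lipofectamine. Its SRSF1 siRNA replicates were just below those with scramble and above those with Lipofectamine. The change of −0.06 against scramble did not pass (adjusted p = 0.306, 95% interval −0.16 to 0.04). Of its 7 reference paths, 6 were below 0, and the other, at 0.26, is also path 2 of an event described below.

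The ATPase ring held the second largest fall and the largest rise. Of its 6 genes, PSMC1, PSMC3 and PSMC6 fell, PSMC4 rose, and PSMC2 and PSMC5 did not pass, with values of −0.11 and −0.02. PSMC1 (ENSG00000100764), an ATPase whose tail helps to open the gate of the alpha ring, had signals of 10.74, 10.80 and 10.65 with scramble siRNA, 10.26, 10.32 and 10.24 with SRSF1 siRNA, and 10.55, 10.61 and 10.55 with Lipofectamine. The SRSF1 siRNA replicates were the lowest 3, and the fall against scramble was −0.45 (SE 0.05, adjusted p = 9.31e-06). Its single reference path and both alternative paths fell to a like degree, by 0.45, 0.36 and 0.46. RefSeq names 13 pseudogenes of PSMC1, the most of any member, and 43 for 18 of the members. The authors kept probes that match up to 3 genes, and whether signal from such copies is part of these values was not tested. PSMC4 (ENSG00000013275) had signals of 10.46, 10.39 and 10.35 with scramble siRNA, 10.78, 10.88 and 10.84 with SRSF1 siRNA, and 10.52, 10.57 and 10.52 with Lipofectamine. Its SRSF1 siRNA replicates were above all controls, by 0.43 against scramble (SE 0.05, adjusted p = 8.07e-06) and by 0.30 against Lipofectamine. Path 1 of its only event rose by 0.55, and path 2 had a change of 0.06. The RefSeq table used here names 0 pseudogenes of PSMC4.

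The other genes of the base are PSMD1 and PSMD2, large scaffolds that bind shuttle factors and enzymes, and PSMD4, a ubiquitin receptor. PSMD1 and PSMD2 fell and PSMD4, at −0.02, did not pass. PSMD1 (ENSG00000173692) had signals of 9.43, 9.58 and 9.50 with scramble siRNA, 9.07, 9.13 and 9.08 with SRSF1 siRNA, and 9.23, 9.35 and 9.26 with Lipofectamine. The 3 conditions did not overlap, and the fall against scramble was −0.41 (SE 0.05, adjusted p = 3.02e-05). All 9 of its distinct reference paths were below 0, from −0.50 to −0.24. PSMD2 fell by 0.22, with 9 of 10 reference paths below 0.

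The lid has 8 genes here, of which PSMD3, PSMD6, PSMD7 and PSMD12 fell and PSMD8 rose. PSMD14, the deubiquitinase of the lid, had a change of −0.06 (adjusted p = 0.526), and its structural partner PSMD7 fell by 0.21. PSMD11 and PSMD13, other structural subunits of the lid, had changes of −0.09 and −0.08 and did not pass either. PSMD12 (ENSG00000197170) had signals of 9.35, 9.50 and 9.45 with scramble siRNA, 9.04, 9.10 and 9.02 with SRSF1 siRNA, and 8.93, 9.18 and 9.18 with Lipofectamine. It was thus lower than with scramble (−0.38, adjusted p = 0.000497), whereas the SRSF1 siRNA and Lipofectamine replicates overlapped. PSMD8 (ENSG00000099341) had signals of 10.91, 10.93 and 10.85 with scramble siRNA, 11.11, 11.16 and 11.08 with SRSF1 siRNA, and 10.86, 10.92 and 10.88 with Lipofectamine. The SRSF1 siRNA replicates were the highest 3, by 0.22 against scramble (SE 0.05, adjusted p = 0.00128) and 0.23 against Lipofectamine.

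All 3 assembly chaperones fell against scramble siRNA. PSMD10 (ENSG00000101843), also called gankyrin, had signals of 10.36, 10.46 and 10.35 with scramble siRNA, 9.92, 10.001 and 9.94 with SRSF1 siRNA, and 10.06, 10.25 and 10.06 with Lipofectamine. The 3 conditions did not overlap, and the fall was −0.44 (SE 0.06, adjusted p = 4.8e-05). PSMD5 fell by 0.30. PSMD9 (ENSG00000110801) had signals of 8.14, 8.13 and 8.20 with scramble siRNA, 7.98, 7.99 and 8.03 with SRSF1 siRNA, and 7.86, 7.87 and 7.86 with Lipofectamine. Its SRSF1 siRNA replicates lay between the controls, below scramble by 0.16 and above Lipofectamine by 0.14 (adjusted p = 0.00834 and 0.0193). With the mean of all paths these were −0.06 and 0.10, and neither passed (adjusted p = 0.297 and 0.0761).

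For the 9 members that did not pass, changes lay between −0.11 and −0.02, and their 95% intervals reached from −0.23 to 0.11 at most. The calls of PSMA2, PSMA6 and PSMC6 were each lost when particular single replicates were left out (PSMA2 without SRSF1 siRNA replicate 3, with an adjusted p of 0.0548, PSMA6 without 1 of 3 replicates, up to 0.1, and PSMC6 without 1 of 4, up to 0.119). With the mean of all paths of a gene, alternatives included, 13 members fell in place of 19 and the median change was −0.10 in place of −0.19. In that setting 7 of the calls were lost, with values of −0.06 for PSMD9, −0.08 for PSMC3, −0.09 for PSMB1, −0.10 for PSMA2 and PSMD6, −0.12 for PSMD7 and −0.14 for PSMC6 (adjusted p from 0.0515 to 0.297), and PSMC2 passed at −0.15 (adjusted p = 0.016). The changes of PSMA5, PSMA3, PSMA6 and PSMA1 kept their calls there at −0.31, −0.16, −0.13 and 0.36. Of the 24 members with more than 1 distinct reference path, 14 had all of them on the same side of 0.

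**Figure D2:**
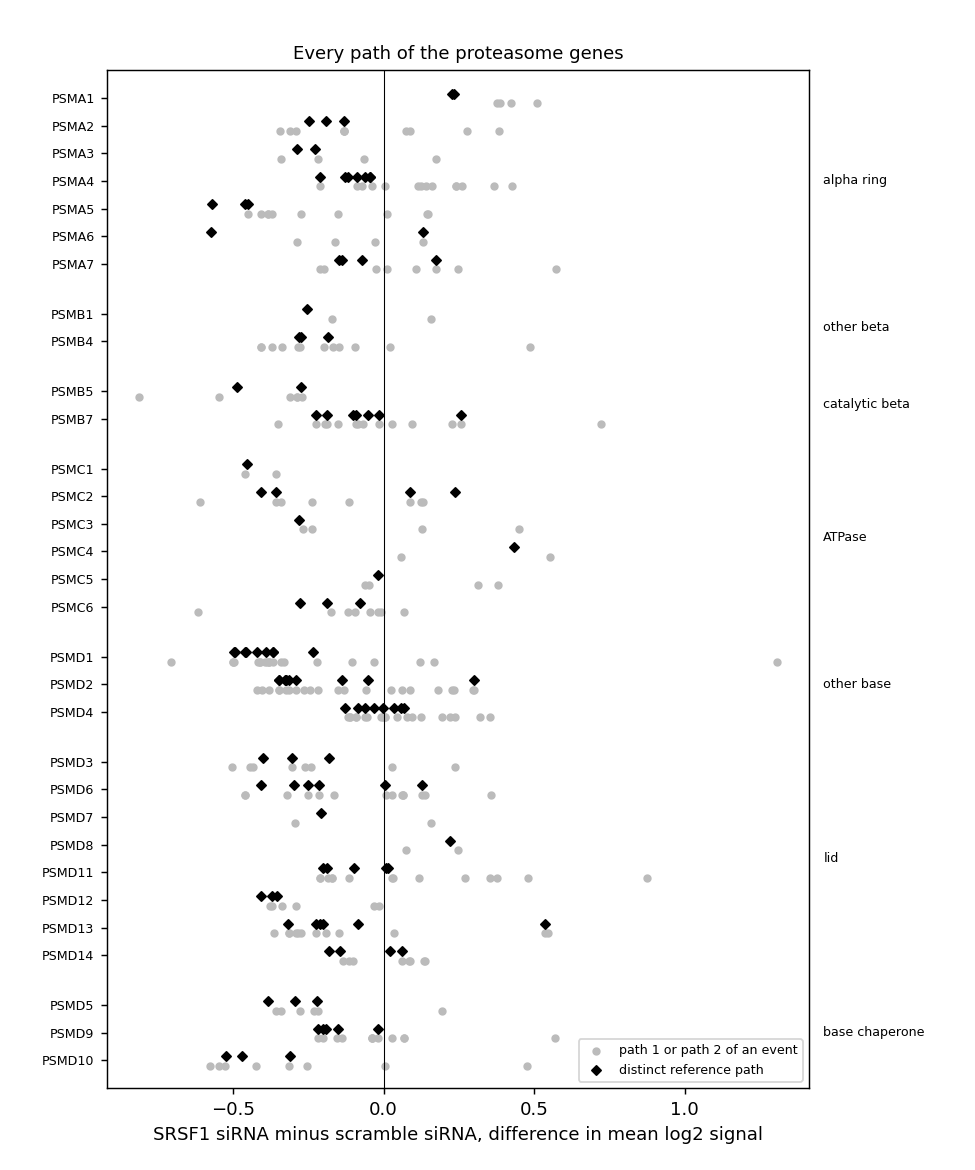
Difference in mean log2 signal, SRSF1 siRNA minus scramble siRNA, for each distinct reference path (black diamonds) and each path 1 or path 2 (grey circles) of the 31 proteasome genes. The reference paths of PSMD1 are all left of 0 and both of PSMA1 right of it, while those of PSMC2, PSMA6 and PSMD13 lie on both sides.

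The scramble siRNA itself went with higher signals of many members than the reagent alone. Of the 31 members, 12 were higher with scramble siRNA than with Lipofectamine and 0 were lower, against 10.9% and 8.99% of all genes tested by limma. At an unadjusted p under 0.05, 17 were higher and 1 lower, a threshold at which the shares of all genes were not counted. The median difference of the members was 0.12, against −0.00 over all genes, and 26 of the 31 values were above 0. PSMD12 had the largest difference, 0.33 (SE 0.07, adjusted p = 0.0054), then PSMC6, an ATPase, with 0.29 (SE 0.07, adjusted p = 0.00884), and PSMD9 with 0.29 (SE 0.04, adjusted p = 0.000783). PSMC6 (ENSG00000100519) had signals of 8.20, 8.43 and 8.36 with Lipofectamine, 8.52, 8.69 and 8.66 with scramble siRNA, and 8.38, 8.49 and 8.46 with SRSF1 siRNA. Its Lipofectamine and SRSF1 siRNA replicates overlapped, and all scramble replicates were above both. Both measured catalytic genes were higher with scramble siRNA, PSMB5 by 0.28 and PSMB7 by 0.16, as were PSMB1 (0.23), PSMB4 (0.18), PSMC3 (0.17), PSMA3 (0.16), PSMC1 (0.16), PSMD1 (0.22) and PSMD10 (0.27). The count of 12 was 7 without scramble replicate 1, 7 without Lipofectamine replicate 1 and 6 without scramble replicate 2, and 7 in a fit of these conditions only. With the mean of all paths it was 7 as well, without PSMA3, PSMB1, PSMB7, PSMC1 and PSMC3. The calls of PSMA3 and PSMC1 were the closest to the threshold, with adjusted p-values of 0.0441 and 0.0461 and between 0.0504 and 0.233 in the settings where they were lost.

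Against Lipofectamine, SRSF1 siRNA went with fewer differences of the members. It left 8 lower and 4 higher, with 19 not passing, against 23.8% and 27.5% of all genes tested. This comparison shares its SRSF1 siRNA samples with that against scramble, so the values are given side by side and are not independent. The 8 members lower than with Lipofectamine were PSMA5 (−0.38), PSMD3 (−0.31), PSMC1 (−0.29), PSMD5 (−0.25), PSMD1 (−0.19), PSMD2 (−0.17), PSMD10 (−0.17) and PSMD7 (−0.15), and all 8 were lower than with scramble too. With the mean of all paths the differences of PSMD1 (−0.11) and PSMD7 (−0.08) from Lipofectamine did not pass, and PSMB5 did, at −0.22 (adjusted p = 0.000521). Over all genes, 20.3% were lower than both controls. PSMA1, PSMC4 and PSMD8 were higher than both, a pattern of 21.6% of all genes. Of the 19 members lower than with scramble, 10 had no call against Lipofectamine and 1, PSMD9, was higher. Of the 31 members, 11 were lower than with scramble while scramble was itself higher than Lipofectamine, a pattern of 6.41% of all genes tested. Both differences use the same scramble samples with opposite sign, so these calls are not independent of each other and nothing is read from the count. The median difference from Lipofectamine was −0.07, against 0.03 over all genes. Between samples of the same number, the medians were 0.00, −0.06 and −0.12 in replicates 1, 2 and 3.

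**Figure D3:**
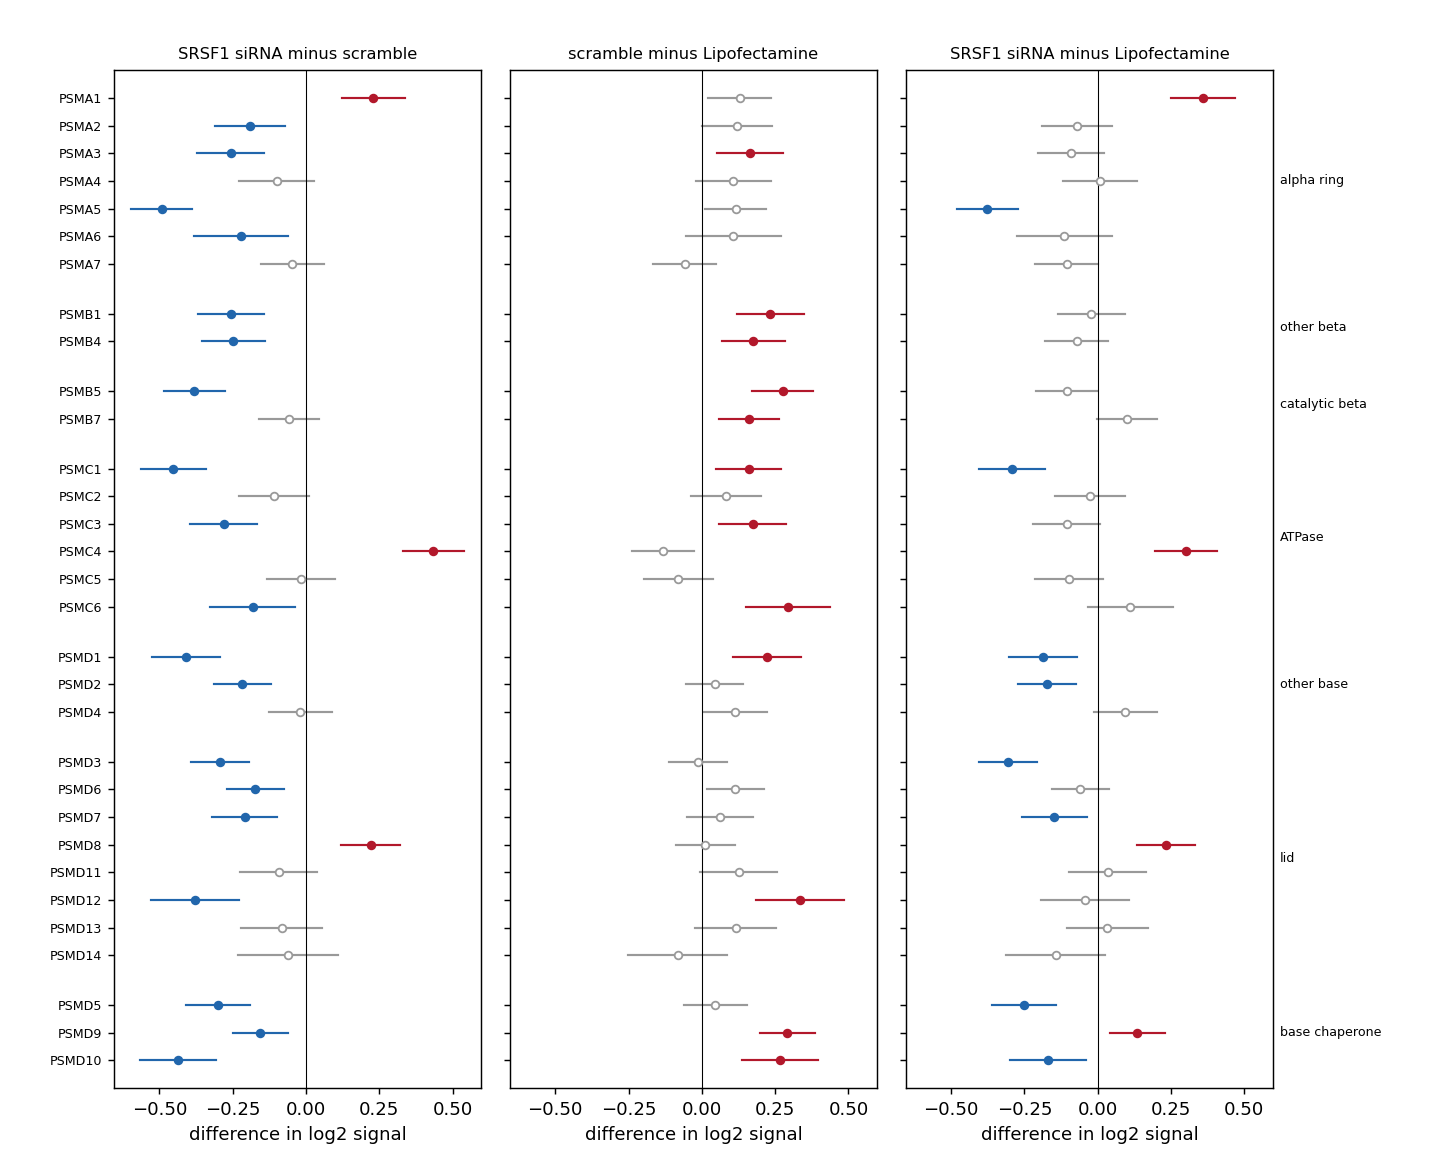
Difference in log2 signal of the 31 proteasome genes in the 3 comparisons, with 95% intervals from limma (filled red, higher, and filled blue, lower, at an adjusted p under 0.05, open grey, not past it). The left panel has 19 blue and 3 red points, the middle panel 12 red and 0 blue, and the right panel 8 blue and 4 red.

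**Figure D4:**
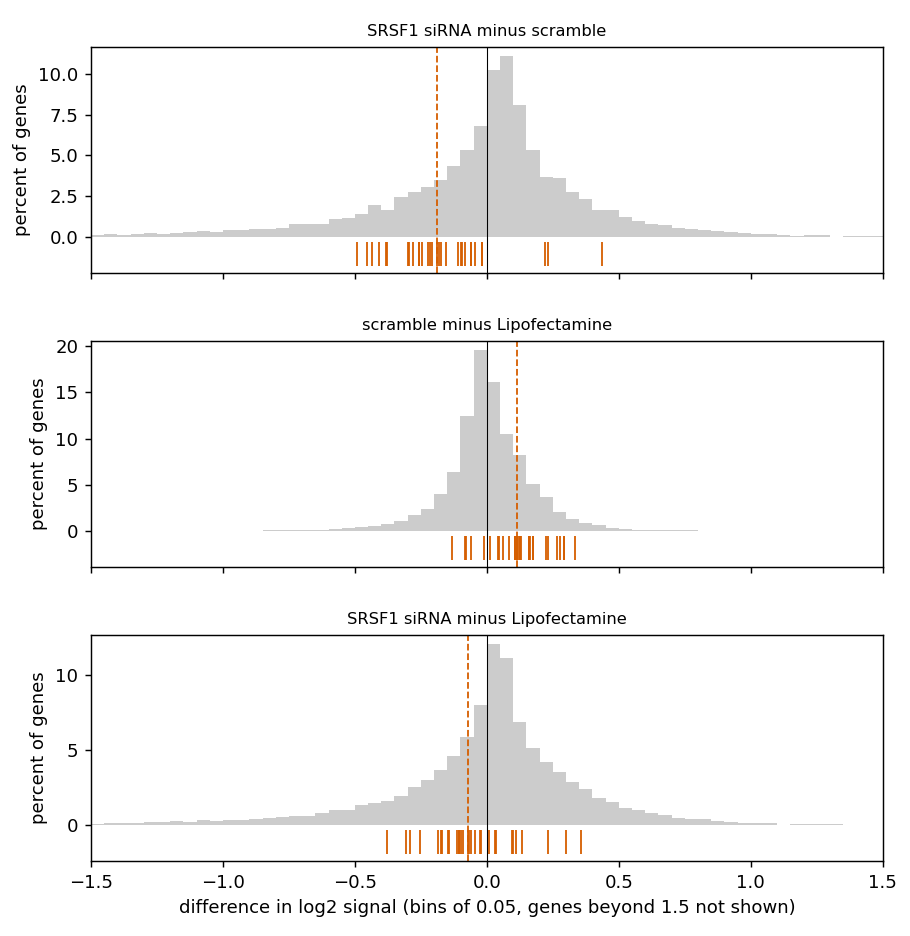
Distribution of the differences in log2 signal over the 12549 genes tested (grey bars, percent of genes) in the 3 comparisons, with the 31 proteasome genes as orange ticks and their median as a dashed line. The medians of the proteasome genes are −0.19, 0.12 and −0.07, and the medians of all genes 0.04, −0.00 and 0.03.

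The splicing events of the members were tested for opposite changes of path 1 and path 2. The members had 135 events, of which 56 in 26 genes had a signal over the filter in all 3 paths, and PSMA6, PSMB1, PSMC2, PSMD5 and PSMD12 had none. Between SRSF1 siRNA and scramble siRNA, 14 of the 56 events (25%) in 12 genes passed an adjusted p under 0.05, against 8.35% of the 25805 events tested in all genes. Path 1 went up in 8 of them and path 2 in 6. In 7 of the 14 both paths passed a test of their own, and in the other 7 only 1 path did. Of the 56 events, 5 passed the filter with SRSF1 siRNA and not with the controls, and 1 of these, in PSMD3, is among the 14, while the other 13 passed in both conditions. The 14 events are numbered as in the table, which does not give their type or position. Of the 12 genes, 7 also fell in expression and 5, PSMA7, PSMB7, PSMD4, PSMD11 and PSMD13, had no expression call. Of the 19 members without a called event, 12 fell. In PSMA7, PSMB7, PSMD13, PSMD2 and PSMD6, the path of the called event that rose is also a reference path. It is thus part of the gene value, at 0.17, 0.26, 0.54, 0.30 and 0.13. The other reference paths of PSMA7, PSMB7, PSMD13 and PSMD2 were below 0. In PSMD6, 4 of the 6 reference paths were below 0.

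The event of lowest p was event 10 of PSMB4. Its path 1 had log2 signals of 5.95, 6.05 and 6.15 with scramble siRNA and 6.44, 6.64 and 6.53 with SRSF1 siRNA, and its path 2 had 9.47, 9.58 and 9.39 against 9.09, 9.05 and 9.28. Path 1 was above both controls in every SRSF1 siRNA replicate, whereas path 2 overlapped with Lipofectamine (9.29, 9.21 and 9.22). The changes were 0.49 and −0.34, with an adjusted p of 1.38e-06 for the event. Event 5 of PSMD3 had a path 1 of 9.997, 9.99 and 9.98 with scramble siRNA and 9.49, 9.62 and 9.55 with SRSF1 siRNA, and a path 2 of 5.50, 5.51 and 5.43 against 5.78, 5.69 and 5.68. Both paths were apart from all controls, with changes of −0.43 and 0.24 (adjusted p = 2.22e-06), and the reference path fell with path 1, by 0.40. The event was tested only through SRSF1 siRNA replicate 1, where path 2 was at 5.78, just over the filter of 5.77. Path 2 was under the filter in every replicate of both controls, so its change is that of a signal near the filter.

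Event 2 of PSMD2 had a path 1 of 7.31, 7.28 and 7.59 with scramble siRNA and 7.73, 7.69 and 7.65 with SRSF1 siRNA, and a path 2 of 7.94, 8.01 and 8.14 against 7.58, 7.70 and 7.87. Both paths were apart from both controls, with changes of 0.30 and −0.31 (adjusted p = 2.25e-05) in this scaffold subunit. Event 5 of PSMA7, an alpha ring gene, had a path 1 of 7.33, 7.43 and 7.55 with scramble siRNA and 7.57, 7.64 and 7.64 with SRSF1 siRNA, and a path 2 of 9.28, 9.31 and 9.36 against 9.05, 9.14 and 9.17. Its changes of 0.17 and −0.20 were small, and both paths were apart from both controls (adjusted p = 0.00226, and 0.0537 without scramble replicate 1). Event 5 of PSMB7, the subunit that cuts after basic residues, had a path 1 of 10.46, 10.51 and 10.46 with scramble siRNA and 10.25, 10.29 and 10.30 with SRSF1 siRNA, and a path 2 of 6.69, 6.75 and 6.95 against 7.004, 7.08 and 7.08. The changes were −0.19 and 0.26 (adjusted p = 0.00129), and path 1 overlapped with Lipofectamine (10.16, 10.19 and 10.26).

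PSMD11, a lid subunit, had 2 called events. Event 7 had a path 1 of 11.16, 11.22 and 11.21 with scramble siRNA and 10.94, 11.06 and 10.96 with SRSF1 siRNA, and a path 2 of 6.48, 6.45 and 6.59 against 7.09, 6.81 and 6.75. The changes were −0.21 and 0.37 (adjusted p = 0.000641), and path 1 overlapped with Lipofectamine (11.02, 11.10 and 11.07). Event 13 had a path 1 of 8.10, 8.22 and 8.45 with scramble siRNA and 9.03, 9.13 and 9.23 with SRSF1 siRNA, against 8.29, 8.19 and 8.50 with Lipofectamine. All SRSF1 siRNA replicates were above all controls, and this rise of 0.87, 1.83-fold, was the largest of any path in the called events. Path 2 of event 13 had 9.55, 9.72 and 9.29 with scramble siRNA and 9.20, 9.52 and 9.22 with SRSF1 siRNA, which overlap, with a change of −0.21 (adjusted p of the path 0.108). The call of event 13 (adjusted p = 0.0112) was lost without scramble replicate 2 (0.24), SRSF1 siRNA replicate 1 (0.12) or SRSF1 siRNA replicate 3 (0.0806).

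Event 6 of PSMD9, a chaperone, had a path 1 of 8.91, 8.85 and 8.96 with scramble siRNA and 8.64, 8.72 and 8.75 with SRSF1 siRNA, and a path 2 of 8.84, 9.02 and 9.12 against 9.51, 9.61 and 9.57. Path 2 was above all controls, by 0.57 against scramble, and path 1, with a change of −0.20, overlapped with Lipofectamine (adjusted p = 0.00159). Event 2 of PSMD13, a lid subunit, had a path 1 of 9.41, 9.39 and 9.32 with scramble siRNA and 9.01, 9.10 and 9.12 with SRSF1 siRNA, and a path 2 of 7.28, 7.78 and 7.56 against 8.05, 8.26 and 7.91. Both paths were apart from both controls, with changes of −0.29 and 0.54 (adjusted p = 0.00451). Event 2 of PSMD7 had a path 2 of 10.99, 11.04 and 11.01 with scramble siRNA and 10.69, 10.74 and 10.74 with SRSF1 siRNA, a fall of 0.29, while its path 1 overlapped between the conditions (6.46, 6.47 and 6.57 against 6.86, 6.65 and 6.46). Its adjusted p of 0.0166 rose to as much as 0.419 when SRSF1 siRNA replicate 1 was left out. The other called events were event 14 of PSMD6, events 2 and 3 of PSMC3 and event 1 of PSMD4, with adjusted p-values between 0.0171 and 0.04, and each was lost without at least 1 of the replicates.

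**Figure D5:**
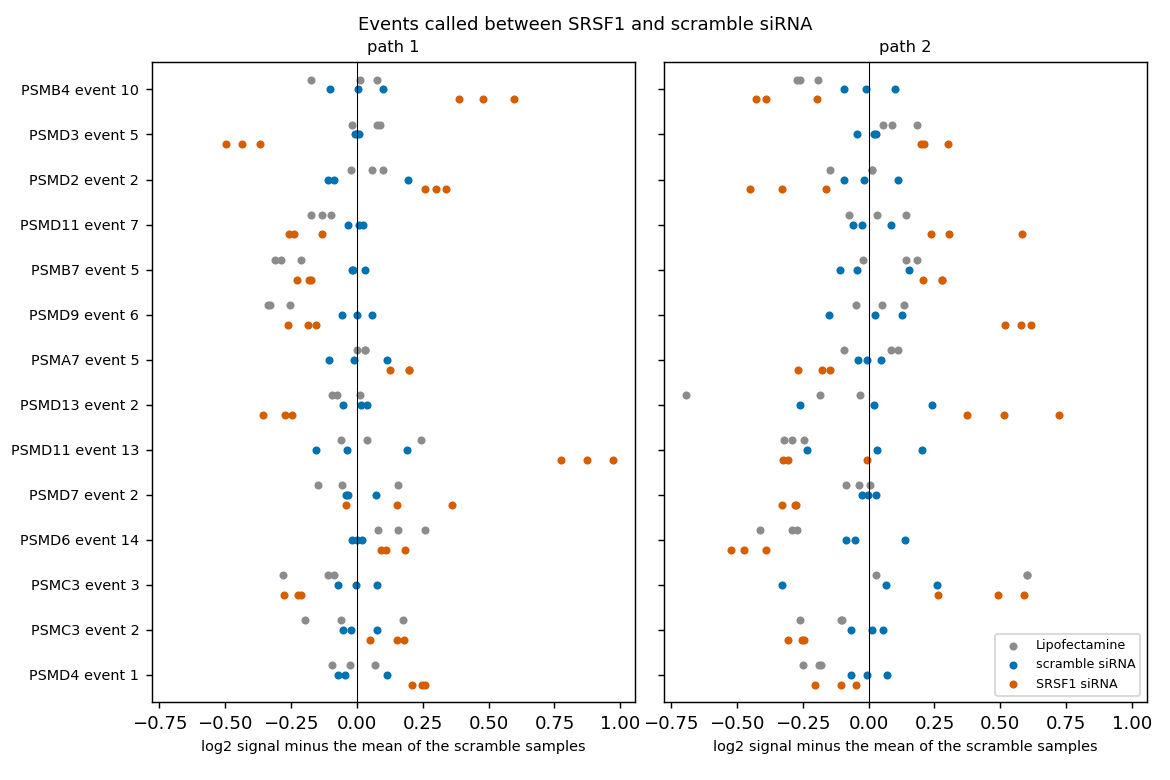
Log2 signal of path 1 (left) and path 2 (right) of the 14 called events in the 9 samples, minus the mean of the 3 scramble samples of that path (grey Lipofectamine, blue scramble siRNA, orange SRSF1 siRNA). Events are in order of p, lowest at the top, and path 1 of PSMD11 event 13 has the largest shift, 0.87.

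In the other comparisons fewer events of the members were called. Between scramble siRNA and Lipofectamine, 2 of the 56 passed (0.275% of all events tested), event 14 of PSMD6 and event 6 of PSMB7, with adjusted p-values of 0.0385 and 0.0488. In neither of them did both paths pass on their own. Event 14 of PSMD6 was also called between SRSF1 siRNA and scramble siRNA, with opposite signs. Its path 1 and path 2 differed by −0.16 and 0.32 for scramble siRNA minus Lipofectamine. For SRSF1 siRNA minus scramble siRNA they differed by 0.13 and −0.46. Both calls use the same scramble samples, so they are not independent, and the event was not called for SRSF1 siRNA against Lipofectamine. Between SRSF1 siRNA and Lipofectamine, 8 of the 56 passed (14.3%), against 6.08% of all events. These were event 2 of PSMD2, event 8 of PSMD1, event 5 of PSMA7, event 5 of PSMD3, event 2 of PSMD7, event 2 of PSMD13, event 4 of PSMA3 and event 8 of PSMB7. Those of PSMD1 and PSMD3 did not pass the filter with Lipofectamine, and the other 6 passed in both conditions. Path 2 of PSMD13 event 2 had the largest change among them, 0.84 against Lipofectamine, beside 0.54 against scramble. No event of PSMA5, PSMB5, PSMC1 or PSMC4 was called in any comparison.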

How the data were processed

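RNA of A549 cells in 3 conditions, 3 replicates each, was hybridized to HTA 2.0 arrays 27 times. According to the methods, the authors aligned array probes with Bowtie 2 to transcripts of Ensembl (release 74, or 75 in the supplementary methods), left out those matching more than 3 genes, and assigned the rest to event paths. The deposited values are log2 signals, background corrected, normalized by quantiles and summarized with RMA by the authors, 1 for each path and hybridization. Intensities before RMA and the number of probes behind a value were not used here, so depth cannot be given and the number of arrays limits the precision.

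The title of each hybridization gives a sample number, taken as the biological replicate, and a replicate number, taken as the hybridization. Hybridizations were averaged to 9 samples. Expression was the mean log2 signal of the distinct reference paths of a gene and was tested with limma 3.58.1 in R 4.3.3, the 3 conditions in one fit, on genes whose highest value passed the 25% quantile (5.77). Events were tested as in the methods: limma on the 3 paths jointly, with the one-sided p-values of path 1 and path 2 summed, on events whose 3 paths passed the same quantile of the reference paths. All p-values were adjusted by Benjamini-Hochberg over all genes or events tested, with a threshold of 0.05, and are two-sided.

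The conditions share the sample numbers 1, 2 and 3. Across genes, same-numbered samples deviated from their condition means together, with correlations of 0.26, 0.26 and 0.30 for SRSF1 siRNA and scramble, 0.32, 0.42 and 0.48 for scramble and Lipofectamine, and 0.28, 0.18 and 0.39 for SRSF1 siRNA and Lipofectamine. The numbers were therefore taken to pair the samples, and a fit with that number as a block was 1 alternative. The others were scaling, the gene value, the filter, single hybridizations, the event statistic and single replicates left out.

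The members, their roles and the lists were chosen with earlier results of these data known. Values in every sample were given for the rises (at most 5) and the 5 largest falls against scramble siRNA, the catalytic subunits, the 10 called events of lowest p, and the 3 largest differences between the controls. The files give gene IDs alone, and the symbols are those of the list of members in its order. The reference names paired 0 of the gene IDs with a symbol, so SRSF1, other proteasome genes and cell type markers were not analysed here.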

Additional observations from a re-analysis of the deposited data

How the results depend on the processing

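None of the members' called expression differences reversed direction under the alternatives in which they were followed. The same was true of the events called between SRSF1 siRNA and scramble siRNA. With single replicates left out, the direction of single members was followed only against scramble siRNA. The direction of the events called in the other comparisons was not followed. Against scramble siRNA, the count of 19 lower members was 13 with the mean of all paths (median −0.10), and it lay between 16 and 19 with single replicates left out, with 3 members higher each time. With the replicate block, the paired fit, 14 called events became 16 and no expression call of a member changed in any comparison, and in both comparisons with Lipofectamine the counts of events stayed at 2 and 8. The shares of all events called in that fit were 9.82% against scramble siRNA, 0.74% between the controls and 7.28% for SRSF1 siRNA against Lipofectamine. Between scramble siRNA and Lipofectamine, the 12 higher members were 7 with the mean of all paths, 7 with these conditions alone, 21 with the hybridization number as the replicate (an alternative added after the data were seen), and 6 to 12 with single replicates left out, of which scramble replicate 2 gave 6 and scramble replicate 1 and Lipofectamine replicate 1 gave 7. With 27 separate hybridizations, with the sample as a random block, and with the hybridization number as the replicate, 1 member was lower in place of 0, and it was 0 with each single replicate left out. Between SRSF1 siRNA and Lipofectamine, the hybridization number as the replicate gave 7 members higher and 14 lower in place of 4 and 8, and single replicates left out gave 3 to 4 and 6 to 11. Of the events against scramble siRNA, 26 were called when only the difference between path 1 and path 2 was tested (30.7% of the events of all genes), 8 with the filter at the 50% quantile, where 29 events remained (9.62% of all), and 9 to 12 with single replicates left out, with 9 without scramble replicate 2. For SRSF1 siRNA against Lipofectamine, the count of 8 member events became 20 with the difference of the paths and 4 with the 50% filter (27.1% and 7.38% of all events). It became 5 with centred arrays and 5 with the own spread of each path (5.94% and 5.81% of all events). With single replicates left out it was 4 to 8, with 4 without SRSF1 siRNA replicate 1 and 5 without Lipofectamine replicate 3. Between the controls, the count of 2 member events became 1 with the 50% filter and 1 with the larger one-sided p. It was 0 with centred arrays, no filter or the own spread of each path, and 0 to 1 with single replicates left out. The causes of these differences were not tested. With single replicates left out, the shares of all events called lay between 5.86% and 9.06% against scramble siRNA. They lay between 4.29% and 6.36% for SRSF1 siRNA against Lipofectamine, and between 0.093% and 0.55% between the controls. The other alternative added after the data were seen, reference paths that are no path of another event, ended the call of PSMC1 between the controls (adjusted p = 0.0504). With those paths alone, 21 members were lower than with scramble siRNA in place of 19. Then 11 were lower than with Lipofectamine in place of 8, and 13 were higher between the controls in place of 12. The number of arrays and the 3 replicates of each condition limit the precision. Paths with a signal near the filter may carry little signal over background, which was not measured here.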

Other observations

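In PSMA6 the distinct reference paths gave −0.57 and 0.13. The fall of 0.22 in the mean of this gene thus averages paths of opposite sign. The path at 0.13 had mean signals of 4.49 with scramble siRNA and 4.62 with SRSF1 siRNA, below the level of the filter. The same path is also path 2 of another event. The path at −0.57 had means of 10.54 and 9.97. The 4 reference paths of PSMC2, an ATPase, also differed in sign, between −0.41 and 0.24, with 2 below 0 and 2 above. The 2 below 0, at −0.36 and −0.41, had scramble means of 9.96 and 10.10. The path at 0.24 had means of 5.47 with scramble siRNA and 5.71 with SRSF1 siRNA, again below the filter level. The path at 0.09, with means of 7.68 and 7.77, is also path 2 of another event.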
